A study of Mus musculus with 18 samples.

Results

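Map2, Dclk1, Dcx, Tubb3, Tiam1, Snap25 and Syt1 encode proteins of the neuronal cytoskeleton and of synaptic vesicle release. The 7 genes were chosen by name, with no rule on a measured value but with earlier results of these data known, out of 21627 protein-coding genes on the 19 autosomes and the X chromosome. Binding of NFIA and NFIB, a pair of transcription factors of the nuclear factor I family, near these genes was compared across 3 stages of medulloblastoma formation in the mouse cerebellum. In each library the 30000 autosomal summits with the highest scores, called top summits here, were given to the nearest protein-coding gene span of the RefSeq table (GRCm38.p6, the build also called mm10) within 100 kb. A summit is the single base at which a called peak is highest, and its score is the −log10 p-value or q-value of the peak caller. Dcx lies on the X chromosome and has no top summits by this definition, so all listed summits near it were used.

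Libraries were made by CUT&Tag, which tethers a transposase to a bound protein through an antibody and so tags the DNA around it. The cells, 100000 for every library, were purified from cerebellum by Percoll gradient. The groups were granule neuron progenitors (GNPs) of postnatal day 7, hyperplasia of postnatal day 28 and medulloblastoma of adult mice. A stage comprised 3 preparations with 1 NFIA and 1 NFIB library apiece, 18 libraries in all. The design text names a genetically engineered mouse model and a cell line, of which the cell line was not analysed here. The sources used here do not give the alleles, strain, sex or treatment of the mice, nor say whether the GNPs came from mice of the same genotype as the tumors. Age and stage changed together and cannot be told apart. GNP and hyperplasia preparations share a pair of title prefixes, while each tumor preparation has a prefix of its own, so tumor contrasts and prefix cannot be told apart either; the sources used here do not say what the prefix marks. Titles mark the third preparation of GNP and of hyperplasia as merged, and nothing says that preparations came from separate animals, so the p-values reflect variation among preparations that may be technical only. The peak names in the deposited lists disagreed with the title on the target in 6 of the 18 libraries and on the replicate number in 12. The peak names begin with GNP, PNC or Tumor, with PNC on all hyperplasia lists, so they group the libraries by stage as the titles do. Both libraries of a preparation were summed for comparisons of stages, by the titles; the numbers in the peak names pair the libraries of a stage in another way, and sums over those pairs were run as an alternative chosen after seeing the data.

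The lists held from 49948 to 385466 summits, and the score of the 30000th autosomal summit ranged from 3.46 to 9.84, so a full list reaches weaker sites in some libraries than in others. The second NFIA library of hyperplasia stood apart, with 13639 summits tied at its 30000th score. A random draw among these ties filled 20.44% of its top summits. In the first NFIA library of GNP, 4899 summits were tied in this way and filled 8.04%. A gene's summit number is not its expression. Summits were present near all 10 granule progenitor markers and all 7 mature granule neuron markers examined at every stage, with 95 to 104 top summits per preparation near the progenitor markers in GNP, 77 to 95 in hyperplasia and 95 to 100 in tumors. Near the mature granule neuron markers there were 70 to 75, 59 to 68 and 63 to 69, and the part of this in the results on single genes was not tested. The sums for astrocyte and Bergmann glia markers were 24 to 35, 29 to 40 and 22 to 32, for microglia markers 2 to 4, 3 to 7 and 3 to 5, and for vascular markers 10 to 15, 8 to 10 and 14 to 17. For oligodendrocyte markers they were 22 to 25, 19 to 27 and 21 to 24, and for Purkinje cell markers 4 to 6, 5 to 8 and 5 to 7. At each stage 1 of 6 astrocyte and Bergmann glia markers (Aqp4), 1 of 5 microglia markers (Aif1) and 1 of 4 Purkinje cell markers (Pcp2) had no top summit, and the other markers of these lists had some.

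Nuclear factor I proteins bind DNA as dimers, at a pair of TTGGC motifs that face each other across a short spacer, and can also bind at a single motif. In the developing cerebellum they are known for a role in the maturation of granule neurons, including axon and dendrite formation, migration and synapse formation. Map2 stabilises microtubules in dendrites, and Tubb3 is a tubulin that neurons use early in differentiation. Dcx and Dclk1 bind microtubules in migrating neurons. Tiam1 is an exchange factor that activates the small GTPase Rac, which remodels actin in migrating cells and spines. Snap25 is a SNARE protein of the presynaptic membrane, and Syt1 is the calcium sensor of synaptic vesicles that triggers fusion by the SNARE complex.

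Several of these genes had summits at their starts in most libraries. The stretches of the RefSeq promoter windows (GRCm38.p6) that lie before the annotated gene span are printed because they show the DNA there. Each reads 5′ to 3′ on the strand of the gene, and capitals mark the motif TTGGC or its reverse complement GCCAA.
Tubb3, chr8:123411303-123411552, plus strand: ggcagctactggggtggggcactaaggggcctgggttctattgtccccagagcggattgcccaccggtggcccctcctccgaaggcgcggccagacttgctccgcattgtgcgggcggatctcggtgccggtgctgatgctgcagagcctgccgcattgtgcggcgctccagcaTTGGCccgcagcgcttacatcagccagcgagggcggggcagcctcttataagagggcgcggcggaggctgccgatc
Syt1, chr10:109010981-109011225, minus strand: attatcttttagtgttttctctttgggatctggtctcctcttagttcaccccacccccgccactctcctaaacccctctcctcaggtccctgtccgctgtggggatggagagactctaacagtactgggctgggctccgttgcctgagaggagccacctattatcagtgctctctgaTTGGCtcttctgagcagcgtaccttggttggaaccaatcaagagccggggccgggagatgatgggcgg
Dcx, chrX:143933397-143933469, minus strand: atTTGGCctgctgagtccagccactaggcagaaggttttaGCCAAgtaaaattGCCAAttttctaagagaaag
Map2, chr1:66175079-66175201, plus strand: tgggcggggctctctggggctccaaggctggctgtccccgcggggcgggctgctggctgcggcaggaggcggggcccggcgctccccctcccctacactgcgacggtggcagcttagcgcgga

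The Tubb3 stretch held 1 motif, at base 175 of 250, and the Syt1 stretch held 1, at base 178 of 245. Each of them had a top summit in 11 of 18 libraries. The 73 bases before Dcx held 3 motifs, at bases 3, 41 and 54, and a listed summit in 1 library, while 9 libraries had one in the full 300-base window. The 123 bases before Map2 held none and had a top summit in 4 libraries. TTGGC or GCCAA occurred in 15344 of 32851 RefSeq promoter windows of the same 300-base design (46.71%), and the facing pair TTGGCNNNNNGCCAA in 12 (0.03653%). No window of the 6 members with a window held the facing pair. A match describes letters and not a bound site.

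**Figure D1:**
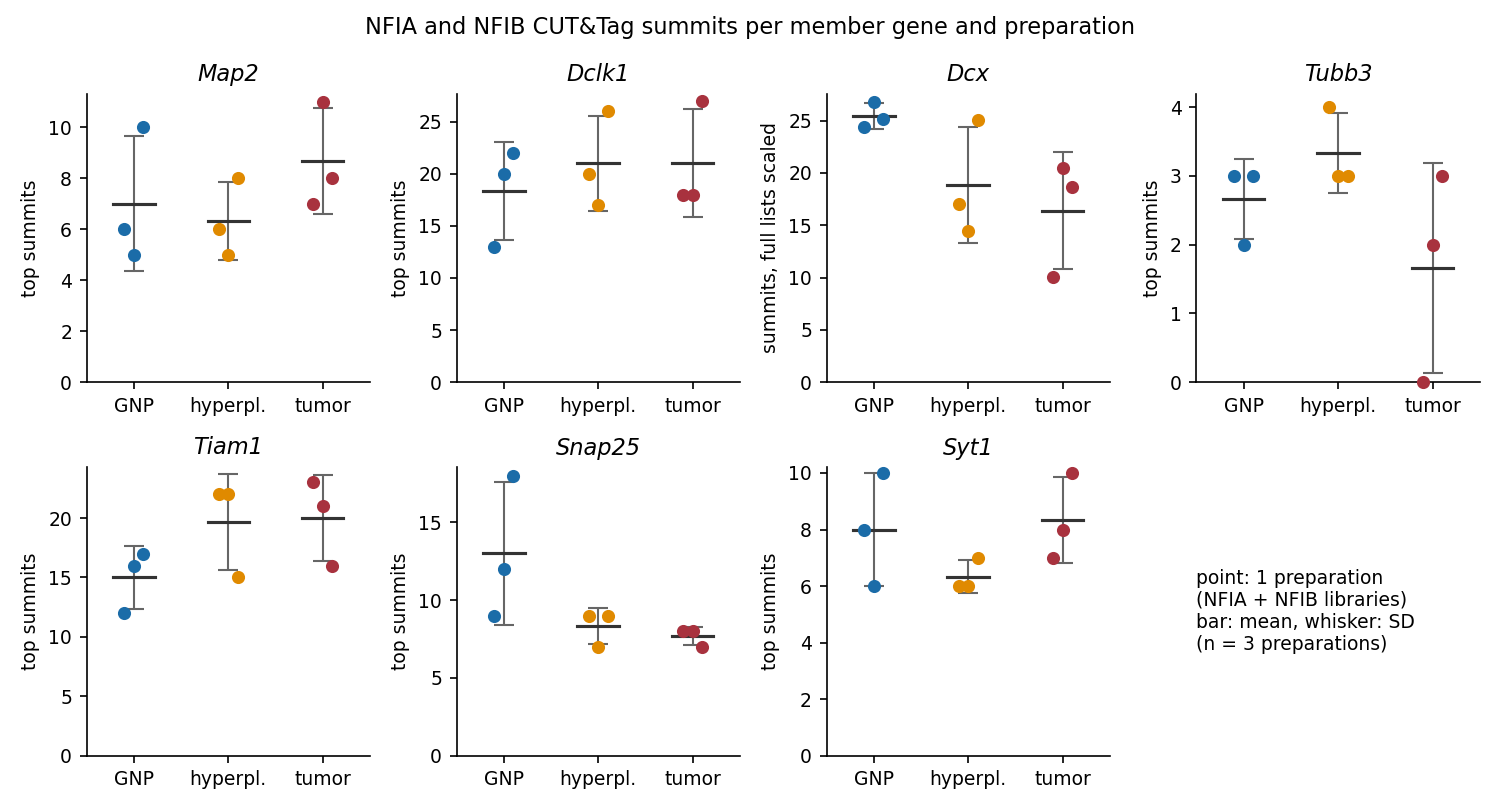
Summits assigned to each gene (vertical axis, number) in each preparation, with NFIA and NFIB libraries summed, by stage (horizontal axis). Points are preparations, bars the mean of 3 and whiskers the SD; Dcx is shown as all listed summits scaled to equal totals. For Snap25, the 3 GNP values of 9, 12 and 18 lie above the tumor values of 8, 8 and 7.

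Among the microtubule genes, Map2 (chr1, 66175202 to 66442583) had 6, 5 and 10 top summits in the 3 GNP preparations, 6, 5 and 8 in hyperplasia and 7, 11 and 8 in tumors. The values of the stages overlapped. The log2 fold change of summits + 0.5 was -0.10 in hyperplasia against GNP (95% interval -0.78 to 0.58) and 0.32 in tumors against GNP (-0.36 to 1.00), with limma adjusted p of 0.930 and 0.644. Inside the gene lay 54 of its 66 top summits (81.8%). Map2 had 7 recurrent regions, which held 59 of the 66. A recurrent region is a stretch of merged summits, each widened by 100 bp, that was hit by at least 3 libraries. The region over the first base of the span (chr1, 66174821 to 66175637) was hit in 6 of 6 GNP, 4 of 6 hyperplasia and 6 of 6 tumor libraries. A region 211710 bases past the listed start (chr1, 66386730 to 66387349) was hit in 3, 6 and 5 libraries, and with summits of any score it was listed in 6, 6 and 5.

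Dclk1 (chr3, 55242303 to 55539068), a kinase with doublecortin domains, had the most top summits of the 6 autosomal genes, 181 over all libraries. Its counts were 13, 20 and 22 in GNP, 20, 17 and 26 in hyperplasia and 18, 18 and 27 in tumors, which overlap. The log2 fold change was 0.20 both in hyperplasia (95% interval -0.40 to 0.80) and in tumors (-0.40 to 0.80) against GNP, with limma adjusted p of 0.789 and 0.758. An intronic or exonic position could not be read from the table used, which gives gene spans and starts. The strongest Dclk1 site lay 6191 bases past the first listed start (chr3, 55248367 to 55248744), was hit in all 18 libraries and ranked between 276 and 1887 in each library's list. Its score was 3.71 to 7.87 times that of the 30000th summit of the same library. The region at the gene's start (chr3, 55242295 to 55243167) was hit in 6, 6 and 5 libraries of the 3 stages.

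A pair of Dclk1 regions differed between stages by the rule used for sites, which calls a region gained with a top summit in at least 5 of 6 libraries of the later stage and at most 1 of 6 of the earlier one, and lost in the opposite case. This is a description without a test. The region at chr3, 55447978 to 55448473, inside the gene, was hit in 1 GNP, 5 hyperplasia and 4 tumor libraries. It was the only gained region of the 49 regions of the 6 autosomal genes in hyperplasia against GNP, where 2.15% of all 41998 regions were gained. A summit of any score was listed there in 5 of 6 GNP libraries. The score relative to the 30000th summit had a median of 0.81 in GNP (5 libraries), 1.99 in hyperplasia and 1.35 in tumors. The region beside the second annotated start of Dclk1 (chr3, 55461757 to 55462187) went the other way, with 5 GNP, 2 hyperplasia and 1 tumor library, and met the rule for loss in tumors against GNP, as did 2.52% of all regions. Its relative scores had medians of 1.35 in GNP (6 libraries), 0.98 in hyperplasia (5) and 0.60 in tumors (3 libraries).

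Tubb3 (chr8, 123411553 to 123422015) is the shortest of the genes and had 23 top summits in all. Counts per preparation were 3, 2 and 3 in GNP, 4, 3 and 3 in hyperplasia and 0, 2 and 3 in tumors. With so few summits the intervals were wide: the log2 fold change was 0.28 (95% interval -1.26 to 1.82, limma adjusted p = 0.898) in hyperplasia and -0.94 (-2.48 to 0.61, adjusted p = 0.565) in tumors against GNP. Without the first tumor preparation the tumor value was -0.081, and with libraries paired by peak name it was -0.65. With all listed summits scaled to equal totals, Tubb3 gave -0.45 (95% interval -1.36 to 0.46, limma adjusted p = 0.820) in hyperplasia against GNP. In tumors against GNP it gave -1.08 (-1.99 to -0.17), with limma p of 0.0240 before and 0.134 after adjustment. Its start region (chr8, 123411166 to 123411760), which covers the printed stretch with the motif, was hit in 4, 5 and 3 libraries and listed with any score in 5 of 6 at each stage. The other Tubb3 region lay 1453 bases past the start and was hit in 3, 2 and 1 libraries.

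Dcx (chrX, 143855842 to 143933396) had 13, 23 and 20 listed summits in GNP, 12, 26 and 16 in hyperplasia and 11, 33 and 18 in tumors. Summits with at least the score of the library's 30000th autosomal summit numbered 2 to 4 per GNP library, 1 to 3 per hyperplasia library and 0 to 2 per tumor library. After scaling to equal list totals the counts were 24.4, 26.8 and 25.2 in GNP, 17.0, 14.4 and 25.1 in hyperplasia and 10.1, 20.5 and 18.6 in tumors. All 3 scaled GNP values lay above the tumor values, which held for 18.1% of the genes tested on the full lists, while raw counts overlapped. On the scaled full lists the log2 fold change was -0.46 (95% interval -1.10 to 0.18) in hyperplasia and -0.68 (-1.32 to -0.04) in tumors against GNP, and limma's adjusted p was 0.764 and 0.162. The direction depends on the scaling: without it the tumor value was 0.04. In that fit over 16265 genes, 0 (0%), 253 (1.56%) and 0 (0%) genes passed an adjusted p of 0.05 in hyperplasia against GNP, tumors against GNP and tumors against hyperplasia, and Dcx was not among them; at an unadjusted p under 0.05 there were 1131, 4479 and 1223 genes. The number of X chromosomes depends on the sex of the mice, which the sources used here do not give, and its part was not tested.

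The Dcx summits formed 9 regions, for which a hit is a listed summit of any score. The start region (chrX, 143932848 to 143933924) was hit in 6 of 6 GNP, 6 of 6 hyperplasia and 2 of 6 tumor libraries. The next region, 1570 bases past the nearest listed start, was hit in 6, 3 and 3 libraries, and the one 33136 bases outside the span in 6, 6 and 4. The region hit most often (chrX, 143884168 to 143885498), inside the gene, was hit in 6, 5 and 6. Of the 9 regions, 6 were hit in more GNP than tumor libraries, 2 in fewer and 1 in equal numbers, on lists of unequal length. The same tally over all regions of the X chromosome was not made. A region inside the gene (chrX, 143906394 to 143907240) was hit in 1, 5 and 4 libraries and so was gained in hyperplasia by the same numbers of libraries but on summits of any score, from lists of unequal length, as were 1.13% of the 2222 regions of the X chromosome. Its scores were low, with a median of 4.26 in the 5 hyperplasia libraries and 5.60 in the 4 tumor libraries.

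**Figure D2:**
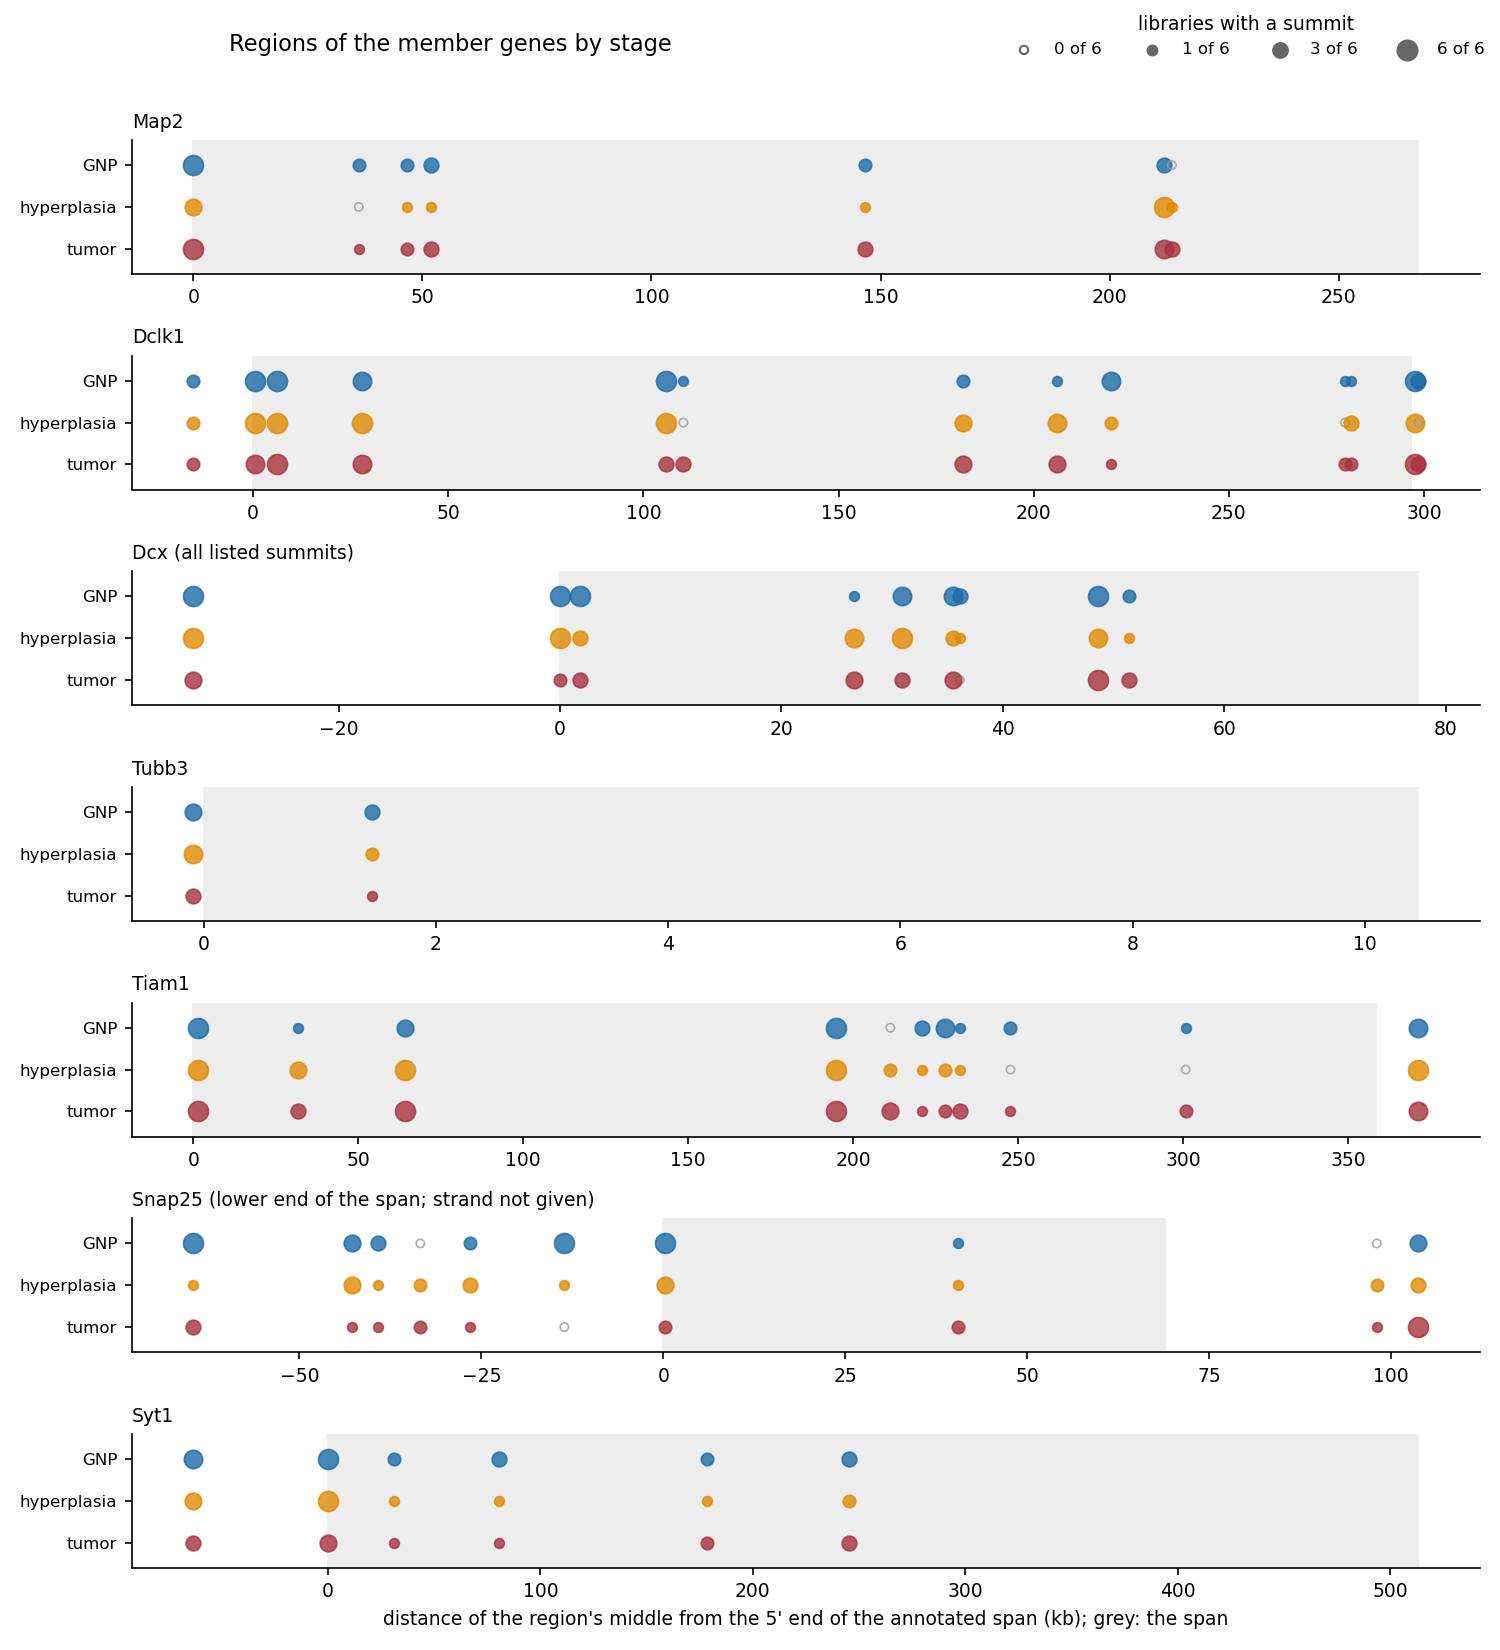
Recurrent regions of each gene by stage (rows) against distance from the 5′ end of the annotated span in kb (horizontal axis; for Snap25 from the span's lower end). Grey marks the gene span, and the area of a filled circle grows with the number of libraries of the stage with a summit, open circles being 0 of 6. Snap25 has 8 of its 10 regions outside its span, while Map2, Dclk1 and Tiam1 have most of theirs inside.

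Tiam1 (chr16, 89787111 to 90145600) had 12, 16 and 17 top summits in GNP, 22, 22 and 15 in hyperplasia and 23, 21 and 16 in tumors. The third preparation of each later stage fell within the GNP range. The log2 fold change was 0.37 (95% interval -0.12 to 0.87) in hyperplasia and 0.40 (-0.09 to 0.90) in tumors against GNP, with limma adjusted p of 0.506 and 0.426. Without the first GNP preparation the values were 0.23 and 0.25, and leaving out hyperplasia's second NFIA library gave 0.22 in hyperplasia. Of its 11 regions, 2 were hit in all 18 libraries. One lay 1576 bases inside the 5′ end of the span (chr16, 90143672 to 90144377), over the lncRNA gene Gm10789, and ranked between 195 and 3645 in every library. The other lay deep inside the gene (chr16, 89950545 to 89951204), with ranks of 5094 to 29968. Another inner region (chr16, 90081043 to 90081553) was hit in 4 GNP and all 12 later libraries, and a summit of any score was listed there in all 6 GNP libraries. No Tiam1 region met the rule for gain or loss in any pair of stages, although without the second NFIA library of hyperplasia 1 did for gain in hyperplasia.

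In the limma fit of stages over top summits, Snap25 (chr2, 136713439 to 136782428) was the only one of the 6 autosomal genes with an unadjusted p under 0.05. The GNP preparations had 9, 12 and 18 top summits, the hyperplasia preparations 9, 7 and 9 and the tumor preparations 8, 8 and 7. Per library the lowest, median and highest were 4, 6.5 and 9 in GNP, 3, 4 and 6 in hyperplasia and 3, 3.5 and 5 in tumors. Of the preparations, every GNP value lay above every tumor value, which held for 5.90% of the 8587 genes tested, and GNP and hyperplasia touched at 9. The mean was 13 ± 4.58 (SD, n = 3) in GNP, 8.33 ± 1.15 in hyperplasia and 7.67 ± 0.58 in tumors. The log2 fold change was -0.57 ± 0.24 (SE; 95% interval -1.12 to -0.02) in hyperplasia and -0.67 ± 0.24 (-1.22 to -0.12) in tumors against GNP. Neither passed the threshold, with limma p of 0.0451 and 0.0229 before and 0.361 and 0.250 after adjustment over all genes. Without the third GNP preparation the values were -0.31 and -0.42. With libraries paired by peak name they were -0.55 (limma adjusted p = 0.429) and -0.68 (adjusted p = 0.302), and the GNP sums of 8, 14 and 17 then overlapped the tumor sums of 6, 9 and 8. On the full lists the tumor value was -0.28 (-0.77 to 0.20) and the hyperplasia value -0.01. In that fit Syt1, Tubb3 and Dcx had an unadjusted limma p under 0.05 between stages, and Snap25 did not. Fewer cells with a bound site and weaker binding in each cell cannot be told apart in such bulk libraries.

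Outside the gene's span the libraries of a stage had 31 top summits in GNP, 19 in hyperplasia and 16 in tumors in sum, and inside it 8, 6 and 7. Of 87 top summits, 21 were inside the span (24.1%), the lowest share of the 7 genes, and 9 of its 10 regions overlapped the lncRNA genes Gm32659 or Gm46767, which were no candidates for the assignment. A region 13595 bases outside the lower end of the span (chr2, 136699599 to 136700090) had a top summit in 6 GNP, 1 hyperplasia and 0 tumor libraries. Its scores were 5.52 to 18.2 in GNP, and a summit of any score was listed in 3 hyperplasia libraries (4.34 to 5.99) and in 2 tumor libraries (2.21 and 4.92). A second region 64579 bases outside (chr2, 136648599 to 136649121) had 6, 1 and 3 libraries. The hyperplasia library with a top summit there was the second NFIA library, the one that stood apart. Both regions met the rule for loss in hyperplasia, which 2.78% of all regions did, and the nearer one met it in tumors as well.

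The region over the lower end of the Snap25 span (chr2, 136713314 to 136713898) was hit in 6, 4 and 2 libraries, and a summit of any score was listed in 6, 6 and 5. The strand of Snap25 was not given in the sources used here. Of the 10 Snap25 regions, 6 were hit in more GNP than tumor libraries and 4 in fewer. Among these 4, the region at chr2, 136816902 to 136817466, lay 34756 bases outside on the far side. It was hit in 4, 3 and 6 libraries. Dclk1 and Tiam1 each had 3 regions hit in more GNP than tumor libraries and 5 in fewer, and Map2 had 1 and 3. Syt1 had 4 and 0, and Tubb3 2 and 0. The same tally over all regions was not made. Between tumors and hyperplasia, 0 of the 49 member regions were gained and 0 lost, against 1.20% and 1.08% of all regions. None was gained in tumors against GNP, against 2.28% of all.

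**Figure D3:**
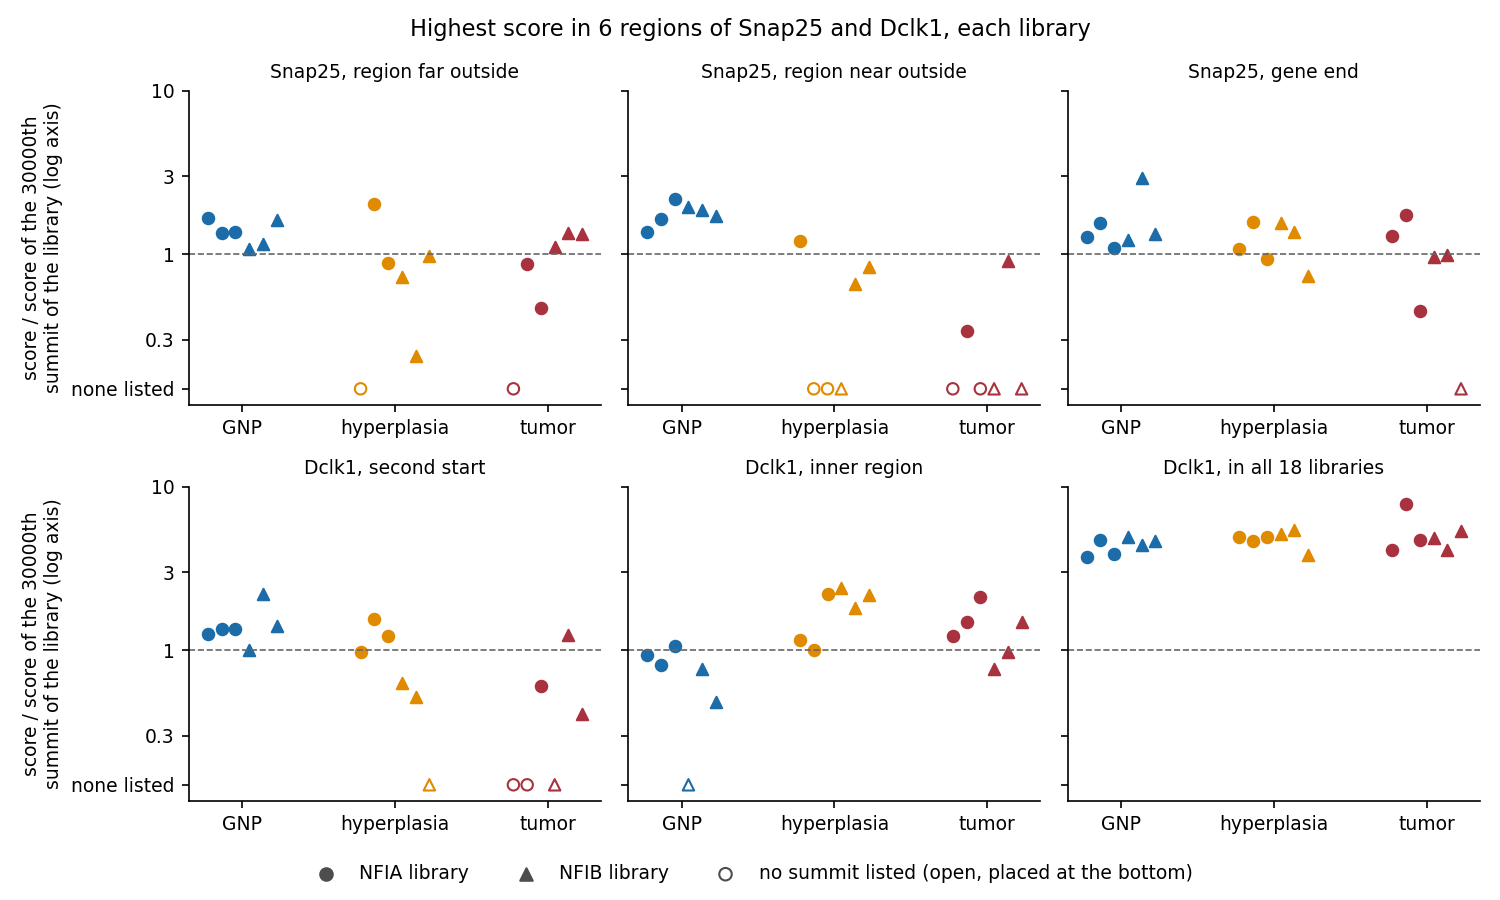
Highest score of each library in 6 regions of Snap25 and Dclk1, divided by the score of that library's 30000th autosomal summit (vertical log axis), by stage (horizontal axis). Circles are NFIA and triangles NFIB libraries by title, open symbols at the bottom have no listed summit, and the dashed line is the limit of the top summits. In the Snap25 region near the gene all 6 GNP libraries lie above the line, against 1 hyperplasia and no tumor library, while the Dclk1 region at the lower right lies above it in all 18.

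Syt1 (chr10, 108497650 to 109010980), the longest of the genes, had 8, 6 and 10 top summits in GNP, 6, 6 and 7 in hyperplasia and 7, 8 and 10 in tumors. The log2 fold change was -0.29 (95% interval -0.76 to 0.18) in hyperplasia and 0.07 (-0.40 to 0.54) in tumors against GNP, with limma adjusted p of 0.601 and 0.919. Its start region (chr10, 109010713 to 109011290), over the printed stretch, was hit in all GNP and hyperplasia libraries and in 4 of 6 tumor libraries. The score relative to the 30000th summit there was 1.57 to 2.89 in GNP, 1.57 to 2.89 in hyperplasia and 0.81 to 1.94 in the 5 tumor libraries with a listed summit.

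On the full lists Syt1 gave another picture. The scaled numbers were 31.9, 47.7 and 45.3 in GNP, 42.6, 80.6 and 37.6 in hyperplasia and 93.3, 83.2 and 72.5 in tumors. Every tumor value lay above every GNP value, which held for 13.9% of the genes tested on the full lists, and the log2 fold change of 1.00 (95% interval 0.43 to 1.58) had a limma p of 0.00235, which became 0.0707 after adjustment. The summits added by the full lists had scores at or below the limit of the top lists, and the preparations rich in them included those with the longest lists, the second of hyperplasia and the first and second of tumors. List length was not a term in the fit on the full lists, and its part was not tested.

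**Figure D4:**
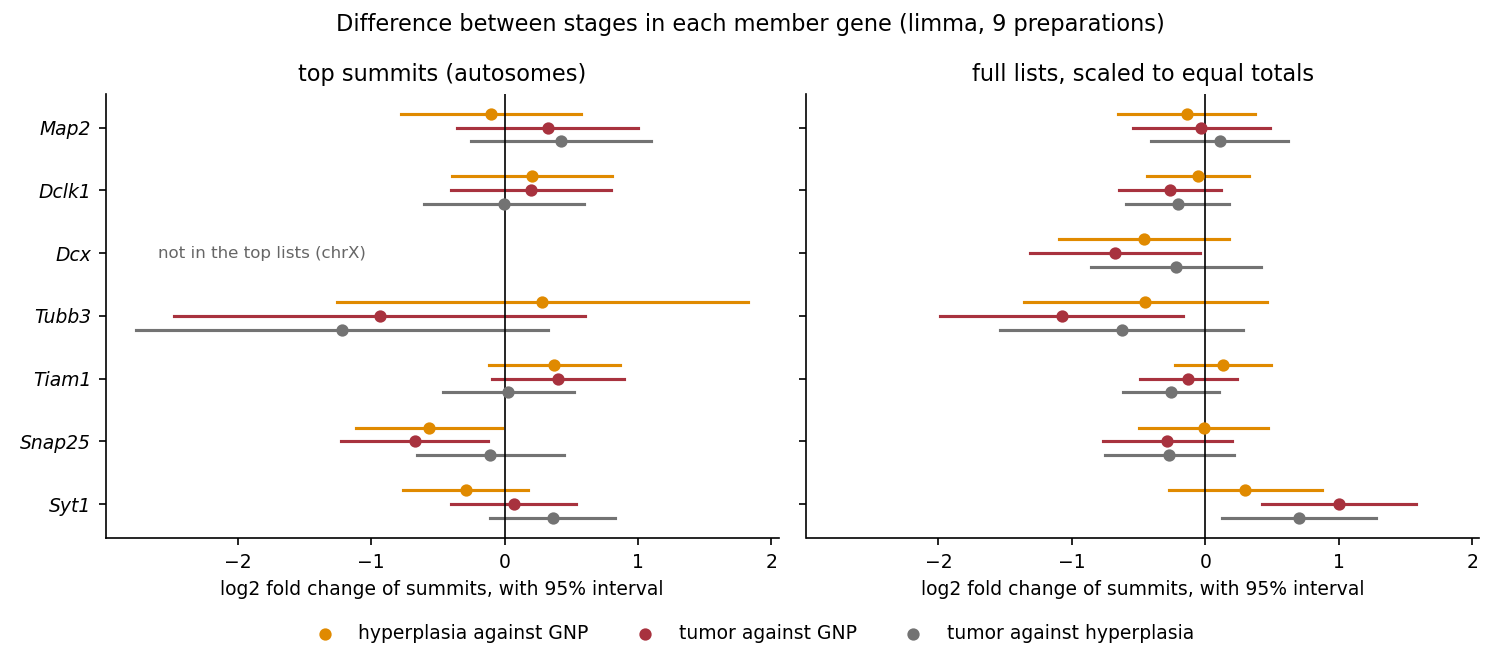
Log2 fold changes of summits between stages (horizontal axis) with 95% intervals for each gene (vertical axis), from top summits on the left and from scaled full lists on the right, by limma over 9 preparations. Only Snap25 on the left, in both contrasts with GNP, and on the right Dcx, Tubb3 and Syt1 in tumors against GNP and Syt1 in tumors against hyperplasia have intervals that leave out 0; none passed an adjusted p of 0.05.

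In the fit over top summits, 8587 genes were tested, among them all 6 autosomal genes described here. Limma called 15 genes (0.175%) in hyperplasia against GNP, 21 (0.245%) in tumors against GNP and 5 (0.0582%) in tumors against hyperplasia, and 0 of the 6. At an unadjusted p under 0.05 there were 1147, 1271 and 970 genes, of which Snap25 was one in both contrasts with GNP. The median log2 fold change of the 6 was 0.05, 0.13 and 0.01 in the same order, beside 0 over all genes tested. NFIB against NFIA gave 0 called genes of 8587 (0%), with 500 at an unadjusted p under 0.05. The largest difference among the 6 was that of Syt1, with a mean of 3.33 top summits per NFIA library and 4.22 per NFIB library (log2 fold change 0.37, 95% interval -0.07 to 0.81, limma adjusted p = 0.872). Target was taken from the titles, which disagree with the peak names in 6 libraries. The fit of targets had stage but not preparation as a further term, so the pairing of libraries within a preparation was left out.

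Per length, and counting only top summits inside the span, Tubb3 had 4.78 summits per 100 kb and library, Dclk1 2.73, Tiam1 2.15, Snap25 1.69, Map2 1.12 and Syt1 0.476. Of the 49 regions of these 6 genes, 31 lay inside the gene (63.3%), 6 within 1 kb of a gene end (12.2%) and 12 outside (24.5%). The shares over 37407 regions assigned to any gene were 47.8%, 24.9% and 27.4%. Regions hit in all 18 libraries numbered 3 of 49 (6.12%), beside 14.6% of all regions, and 23 (46.9%) were hit in 3 to 6 libraries, beside 35.5%. In each library the best Dclk1 summit ranked 1887 or higher up and the best Tiam1 summit 3645 or higher up, while the best ranks of Map2, Tubb3, Snap25 and Syt1 lay between 3997 and 27384, and Tubb3 had no top summit in the 2 libraries of the first tumor preparation. These shares and ranks are descriptions, since regions of 1 gene share that gene.

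Other genes of the same pathways gave no call either. Of 32 further microtubule and axon cytoskeleton genes 27 could be tested, with 11 above and 15 below 0 in hyperplasia against GNP, 10 and 17 in tumors against GNP and 12 and 15 in tumors against hyperplasia, and 0 past the threshold. The median log2 fold changes were -0.04, -0.12 and -0.04. Dst, a cytoskeletal linker protein, had the highest value in both contrasts with GNP, with 9 ± 1 top summits in GNP, 14.7 ± 1.53 in hyperplasia and 17 ± 2 in tumors (SD, n = 3). Its log2 fold change was 0.68 in hyperplasia (adjusted p = 0.102), or 0.32 without the second NFIA library of that stage, and in tumors 0.88 (95% interval 0.58 to 1.18, limma adjusted p = 0.0540). Nefl, the light neurofilament chain, had the lowest value in hyperplasia, -1.67 (adjusted p = 0.202), with 8 ± 1.73 top summits in GNP and 2.33 ± 1.15 in hyperplasia. Map1a had the lowest value in tumors, -2.09 against GNP (adjusted p = 0.235) and -1.58 against hyperplasia (adjusted p = 0.453), on a mean of 2.11 summits. Ank2 was highest in tumors against hyperplasia at 0.49 (adjusted p = 0.406).

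Of 34 synaptic vesicle and release genes 29 could be tested, with 12 above and 17 below 0, 12 and 16, and 14 and 11 in the same 3 contrasts, and 0 past the threshold. The medians were -0.14, -0.11 and 0. Snap91, a clathrin assembly protein of synaptic vesicles, had 2 top summits in each GNP preparation, 3.67 ± 0.58 in hyperplasia and 5.33 ± 1.53 in tumors. Its log2 fold change of 1.19 in tumors (95% interval 0.72 to 1.66) had a limma adjusted p of 0.0600, or 0.0259 with libraries paired by peak name, and in hyperplasia it was 0.73 (adjusted p = 0.200). Nsf, the ATPase that takes SNARE complexes apart, had the lowest value in tumors, -1.56 against GNP (adjusted p = 0.174) and -1.25 against hyperplasia (adjusted p = 0.356). Rph3a was lowest in hyperplasia at -0.84 (adjusted p = 0.381), and Unc13c, a priming factor, was highest in tumors against hyperplasia at 0.72 (adjusted p = 0.295).

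Of 20 Rac activators, effectors and polarity genes 16 could be tested, with 8 above and 8 below 0, 9 and 6, and 8 and 8, and 0 past the threshold, and the medians were 0.01, 0.09 and -0.01. Kalrn, a Rac exchange factor like Tiam1, had the lowest value in both contrasts with GNP, with 37.3 ± 1.15 top summits in GNP, 26.7 ± 3.21 in hyperplasia and 28 ± 5.57 in tumors. Its log2 fold changes were -0.48 (95% interval -0.83 to -0.14, limma adjusted p = 0.217) and -0.43 (-0.77 to -0.09, adjusted p = 0.242). Pak1, a kinase bound by active Rac, was highest in both, at 1.87 (adjusted p = 0.381) and 1.36 (adjusted p = 0.488), which became 0.87 and 0.35 without the third GNP preparation. In tumors against hyperplasia Dock4 was highest at 0.48 (adjusted p = 0.326) and Pak2 lowest at -0.57 (adjusted p = 0.456).

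The genes whose log2 summit numbers most resembled those of a member over the 9 preparations, among genes with a mean of at least 5, were Bbs10 for Map2 (Pearson's r of 0.944), Wdtc1 and Rnd2 for Dclk1 (0.931 and 0.917) and Abracl and Ppp4r3b for Tubb3 (0.955 and 0.954). For Tiam1 they were Lmo7 and Itpr2 (0.912 and 0.897), for Snap25 Osbpl1a and Xkr4 (0.915 and 0.876), and for Syt1 Psat1 and Tank (0.917 and 0.910). They are the highest of about 3059 values for each member, over preparations that share libraries and list cutoffs, and are given as a description.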

How the data were processed

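NFIA and NFIB CUT&Tag summits were analysed in 18 libraries. Per the submitters' processing notes, Bowtie2, MACS2 and the build mm10 were used; the sources used here give no version and no control library. Each library's deposited list has 1 summit per row with a score that is a −log10 p-value or q-value given by the authors' peak caller (which of them is not stated); scores start at about 2.0, and weaker sites are missing. Depth is unknown. The scores of the lists are the authors' own.

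Stage, target and replicate came from the titles. Autosomal summits were ranked by score, ties in random order (seed 1), and the 30000 highest were assigned to the nearest protein-coding span within 100 kb, ties to the shortest span. Libraries of a preparation were summed. The test was limma 3.58.1 (R 4.3.3; trend, empirical Bayes) on log2(summits + 0.5) with only stage in the model and adjustment by Benjamini-Hochberg at 0.05, for genes averaging at least 2 summits in the 9 preparations; the contrast of targets used single libraries (mean of at least 1) and included stage. On this scale the pseudocount understates changes of genes with few summits, while averaging logs over preparations at or near 0 can give more than the ratio of the means. Dcx was tested on full lists of the autosomes and X scaled to equal totals. The fit was tested on simulated data.

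Members and gene lists were chosen with earlier results of these data known. Named genes are the members, the highest and lowest tested gene of each list in each contrast (all called genes, of which there were none) and the 2 genes most alike to each autosomal member, of which 1 is not reported here. Promoter windows of 250 bases before to 50 after a start came from RefSeq; the table matched 6 of 7 members. Python 3.11.15, numpy 2.4.6, pandas 2.3.3 and matplotlib 3.10.9 were used. Alternatives were other numbers of top summits, a fixed score, full lists, another order of ties, a 10 kb limit, another pseudocount, no filter, each target alone, libraries as values, blocks and covariates, preparations left out, and libraries paired by peak name.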

Additional observations from a re-analysis of the deposited data

Results flagged for a closer look

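Over the 6 libraries of a stage, 1 of 42 sets of summit counts and best ranks or scores of the 7 genes held a value far from the others. The best Map2 summit of the third NFIA library of hyperplasia ranked 26978, while the next lowest-ranked best summit among the other 5 hyperplasia libraries was at 15005. Chance gives such a value in about 1 of 20 sets.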

How the results depend on the processing

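No member was called under any of the 84 settings run for the 4 comparisons, and Snap25 kept a negative value in both contrasts with GNP under all of its settings (-1.11 to -0.01 in hyperplasia, -1.18 to -0.27 in tumors). The numbers of called genes in hyperplasia against GNP, tumors against GNP and tumors against hyperplasia, 15, 21 and 5 as reported, moved to 43, 46 and 10 with the 15000 highest scores (with 1 for NFIB against NFIA), to 0, 0 and 0 with scores of at least 5, to 83, 124 and 41 with no filter, to 114, 140 and 15 with 18 libraries as separate values, to 2, 3 and 1 with list length as a covariate, and to 0, 272 and 0 with all listed autosomal summits scaled. NFIB libraries alone gave 55, 63 and 17, and NFIA libraries alone 25 and 10 in the first and last. Hyperplasia against GNP gave 3 with a pseudocount of 2, 2 with another order of ties and 2 with the title prefix as a term. A 10 kb limit gave 48 in tumors against GNP and 0 against hyperplasia, and 8 were called in tumors against hyperplasia without the second NFIA library of hyperplasia. The 12 libraries whose peak names carry the target of the title, chosen after seeing the data, gave 6 genes for NFIB against NFIA. Libraries paired by the number in the peak names, also chosen after seeing the data, gave 19, 35 and 1. The cause of these shifts was not tested.

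Among directions, the 15000 highest scores turned Map2 (0.75) and Dclk1 (-0.071) in hyperplasia and Dclk1 (-0.13), Tiam1 (-0.15) and Syt1 (-1.07) in tumors against GNP. Scaled full lists turned Dclk1 (-0.056), Tubb3 (-0.45) and Syt1 (0.30) in hyperplasia, Map2 (-0.015), Dclk1 (-0.25) and Tiam1 (-0.11) in tumors, and Nsf against hyperplasia (0.22). Scores of at least 5 turned Map2 (-0.66), Dclk1 (-0.37), Tiam1 (-0.59), Syt1 (-0.82), Dst (-0.49), Snap91 (-0.14) and Pak1 (-0.15) in tumors against GNP and Ank2 (-0.55), Unc13c (-0.19) and Dock4 (-0.18) against hyperplasia. NFIA libraries alone turned Dclk1 (-0.038), NFIB libraries alone Map2 (0.15) and Tiam1 (-0.048) in hyperplasia and Syt1 (-0.20) in tumors, and another order of ties Map2 (0.059). Full lists without scaling turned Dcx in tumors (0.044 against GNP, 0.13 against hyperplasia). Dst passed in tumors against GNP with no filter (limma adjusted p = 0.0363), and Snap91 passed within 10 kb (0.0400) and with 18 libraries as separate values (0.0419), as did Nsf (0.0399). The setting with 18 libraries counts both libraries of a preparation as independent replicates, so its p-values may be too small.

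With each preparation left out in turn, 1 to 10, 1 to 25 and 1 to 6 genes were called in the 3 contrasts and 0 to 2 for NFIB against NFIA. Dcx ranged from -0.68 to -0.29 in hyperplasia, from -0.87 to -0.37 in tumors against GNP and from -0.41 to 0.088 against hyperplasia. Dclk1 ranged from -0.020 to 0.35 in hyperplasia and from -0.025 to 0.34 in tumors against GNP, Map2 from -0.30 to 0.17 in hyperplasia and Syt1 from -0.11 to 0.23 in tumors. Snap25 ranged from -0.79 to -0.31 and from -0.90 to -0.42, Tubb3 in tumors from -1.48 to -0.081, Tiam1 from 0.23 to 0.55 and from 0.25 to 0.55, Map2 in tumors from 0.13 to 0.59, Tubb3 and Syt1 in hyperplasia from 0.12 to 0.36 and from -0.47 to -0.12, Pak1 from 0.87 to 2.72 and from 0.35 to 2.20, and against hyperplasia Ank2 from 0.31 to 0.66 and Pak2 from -0.73 to -0.32. In hyperplasia 10 were called without GNP preparation 1 or tumor preparation 2, and 7 or fewer without each other one. The lowest count there, 1, came without hyperplasia preparation 2 or tumor preparation 1, and the lowest in tumors against GNP, 1, without tumor preparation 1; there 3 were called without GNP preparation 2 and 7 without GNP preparation 3 or tumor preparation 2. Against hyperplasia 1 was called without GNP preparation 3 or hyperplasia preparation 3, 2 without GNP preparation 1 or tumor preparation 2 and 3 without GNP preparation 2 or tumor preparation 1. For NFIB against NFIA the 2 came without tumor preparation 3. For regions, the strict rule of 6 of 6 libraries against none left 0 of 49 gained and 0 lost in hyperplasia, beside 0.379% and 0.46% of all regions. In tumors against GNP it left 1 lost (the Snap25 region near the gene), beside 0.364% of all. With the 15000 highest scores, 0 of 24 member regions were gained and 1 was lost in hyperplasia, beside 2.29% and 3.19% of all 22916 regions. Without the second NFIA library of hyperplasia 2 were gained (in Dclk1 and Tiam1) and 3 lost (in Dclk1 and Snap25) in hyperplasia against GNP. The shares of all regions were 3.69% and 3.16%. In that setting 1, in Snap25, was lost in tumors against hyperplasia, beside 2.26% of all regions.

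Replicate numbers gave at most a weak pairing of the preparations. Deviations of the 9 same-numbered pairs correlated at 2.16e-05 to 0.0804, all of them positive. Those of the 18 other pairs lay at -0.0732 to 0.0308. A fit with a replicate block called 0, 1 and 1 genes in the 3 contrasts, and no member; Snap25 had an adjusted p of 0.401 in hyperplasia and 0.303 in tumors against GNP, and Dcx 0.0919 in tumors. Summit numbers per gene are small and depth is unknown, which limits the precision.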
